A study of Mus musculus with 6 samples.

Results

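The NF-kB system of mouse macrophages was examined through 10 genes, taken by their symbols from the deposited expression table of 29957 genes. They were 3 subunits of the canonical pathway (Rela, Rel and Nfkb1), 2 of the noncanonical pathway (Relb and Nfkb2), 3 classical IkB inhibitors (Nfkbia, Nfkbib and Nfkbie) and 2 nuclear IkB proteins (Nfkbiz and Bcl3). All 10 were found, and all 10 reached at least 1 FPKM in all 6 libraries. FPKM is the number of sequenced fragments scaled to transcript length and library size, so levels of different genes can be set side by side approximately. It does not remove every difference between libraries or between transcripts of different GC content, as described below.

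The libraries came from bone marrow-derived macrophages (BMDMs), the macrophages that grow out of cultured bone marrow, of wild-type mice. The treated group, LPS+PA-BSA, had 3 libraries. LPS, the endotoxin of Gram-negative bacteria, was its first signal, and PA-BSA, described in the labels as a free fatty acid, was the second signal for the Nlrp3 inflammasome. The control group also had 3 libraries. The labels used here give no age, dose or time, do not say what the control cells received, and name no separate mice or cultures, so the p-values below measure the spread between these libraries, which may be technical. No library with LPS alone was analysed here, so LPS and PA-BSA cannot be told apart in any difference below.

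NF-kB factors are dimers of Rel-homology proteins. In the canonical pathway, receptors such as Tlr4 activate the IkB kinase complex, which marks classical IkB proteins for destruction and frees Rela and Rel dimers to enter the nucleus. In the noncanonical pathway, the kinase encoded by Map3k14 accumulates and causes the precursor encoded by Nfkb2 to be cut to p52, the partner of Relb. Several IkB genes are themselves NF-kB targets, which forms a negative feedback loop well known in macrophages. Protein processing, degradation and nuclear entry are not visible in RNA measurements.

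RefSeq promoter windows (GRCm38.p6, 250 bases before to 50 after a start site) were available for 7 of the 10 genes (Rela, Rel, Nfkb2, Nfkbia, Nfkbib, Nfkbie and Bcl3), and Nfkb2 had 3 of the 9 windows. They were searched on both strands for the 10-base kappaB consensus, the sequence NF-kB dimers bind. Windows are shown for the 4 genes that were higher in LPS+PA-BSA libraries and for Rela, whose level lay lower on average, each 5′ to 3′ on the gene's strand; the last Nfkb2 window overlaps the one before it and is not shown. Capitals mark every base covered by a match, and overlapping matches are joined into 1 stretch.
Nfkbia, chr12:55492598-55492897, minus strand: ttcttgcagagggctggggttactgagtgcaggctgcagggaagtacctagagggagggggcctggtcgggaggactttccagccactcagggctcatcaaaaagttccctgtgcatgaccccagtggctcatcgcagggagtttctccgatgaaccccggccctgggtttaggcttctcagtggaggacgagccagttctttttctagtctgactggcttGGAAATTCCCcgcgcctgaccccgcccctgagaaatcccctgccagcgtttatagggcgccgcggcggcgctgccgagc
Nfkbie, chr17:45555450-45555749, plus strand: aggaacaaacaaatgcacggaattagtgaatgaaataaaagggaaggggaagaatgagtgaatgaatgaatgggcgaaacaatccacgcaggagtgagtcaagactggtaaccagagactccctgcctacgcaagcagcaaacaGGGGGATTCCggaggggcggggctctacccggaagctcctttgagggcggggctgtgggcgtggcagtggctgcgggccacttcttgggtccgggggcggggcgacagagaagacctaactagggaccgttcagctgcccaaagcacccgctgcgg
Rel, chr11:23770920-23771219, minus strand: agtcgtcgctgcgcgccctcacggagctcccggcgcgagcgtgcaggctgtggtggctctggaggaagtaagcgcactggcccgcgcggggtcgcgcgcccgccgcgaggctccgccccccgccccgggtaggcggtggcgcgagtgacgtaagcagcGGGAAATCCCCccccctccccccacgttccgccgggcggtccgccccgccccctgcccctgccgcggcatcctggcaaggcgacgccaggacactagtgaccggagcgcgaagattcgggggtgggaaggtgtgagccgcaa
Nfkb2, chr19:46304487-46304786, plus strand: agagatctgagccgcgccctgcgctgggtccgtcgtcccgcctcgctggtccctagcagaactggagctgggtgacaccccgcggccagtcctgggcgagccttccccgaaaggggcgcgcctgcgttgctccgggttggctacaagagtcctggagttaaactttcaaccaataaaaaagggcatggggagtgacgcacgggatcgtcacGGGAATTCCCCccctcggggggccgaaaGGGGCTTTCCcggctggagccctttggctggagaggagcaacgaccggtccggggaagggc
Nfkb2, a start site further downstream, chr19:46305445-46305744, plus strand: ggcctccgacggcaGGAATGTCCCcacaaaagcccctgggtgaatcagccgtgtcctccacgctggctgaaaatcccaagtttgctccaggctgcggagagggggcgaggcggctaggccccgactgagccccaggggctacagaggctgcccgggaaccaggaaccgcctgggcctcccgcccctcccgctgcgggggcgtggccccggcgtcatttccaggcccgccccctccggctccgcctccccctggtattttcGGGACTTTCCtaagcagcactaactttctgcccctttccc
Rela, chr19:5637291-5637590, plus strand: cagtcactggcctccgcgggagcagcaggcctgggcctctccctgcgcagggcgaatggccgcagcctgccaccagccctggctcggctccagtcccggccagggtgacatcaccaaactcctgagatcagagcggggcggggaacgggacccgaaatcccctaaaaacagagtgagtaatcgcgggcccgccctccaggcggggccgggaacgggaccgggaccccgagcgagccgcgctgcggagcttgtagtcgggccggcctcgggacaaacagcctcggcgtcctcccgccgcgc

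The stretch began 29 bases upstream of the start site in Nfkbia (GGAAATTCCC), 106 bases upstream in Nfkbie (GGGGGATTCC) and 92 bases upstream in Rel (GGGAAATCCCC). The first Nfkb2 window held 2 stretches, 39 and 11 bases upstream (GGGAATTCCCC and GGGGCTTTCC). The next Nfkb2 window also held 2 stretches, one 236 bases upstream and one beginning 10 bases into the transcript (GGAATGTCCC and GGGACTTTCC), and the only stretch in the last Nfkb2 window was the same GGGACTTTCC site. Bcl3, whose level did not pass the test, also held 1 stretch (GGGAAGTCCC), 2 bases into the transcript. No match was found in the Rela or the Nfkbib window. Counted by gene, 5 of the 7 had a match in at least 1 window, against 9.55% of the 27025 genes in the RefSeq table. Counted by window, 7 of the 9 had a match, against 8.46% of 32851 windows. These are matches to letters and were not tested for binding.

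Depth, worked out from the smallest steps in the FPKM values, was 14.3 to 18.8 M fragments in LPS+PA-BSA libraries and 13.9 to 21.1 M fragments in control libraries. LPS+PA-BSA 1 and control 3 stood apart from the other libraries of their groups along the leading axis of within-group spread (68.2% of the variance); LPS+PA-BSA 2 lay near its middle. Transcripts rich in G and C were lower in both of these libraries, so results are also given for LPS+PA-BSA 2 and 3 against control 1 and 2 alone. The libraries left out were picked by this spread, so less spread and smaller p-values are built into those fits. Passing there adds no support to a call. All 8 macrophage markers listed exceeded 1 FPKM. Their sum was lower in LPS+PA-BSA libraries (12059 to 14306 FPKM) than in control libraries (18878 to 21927 FPKM), mostly through Lyz2. Cd68, Itgam, Csf1r and Mertk were also lower in each LPS+PA-BSA library, and Adgre1 and Cd14 overlapped. Fcgr1 was higher (163 to 189 FPKM in LPS+PA-BSA libraries and 34.3 to 42.7 FPKM in control libraries). The summed markers of other cells differed between the groups: neutrophil markers reached 59.4 to 75.3 FPKM in LPS+PA-BSA libraries and 10.6 to 22.3 FPKM in control libraries. Of these, S100a8 alone was higher in each LPS+PA-BSA library (57.7 to 67.1 FPKM, against 6.11 to 8.30 FPKM in control libraries), S100a9 overlapped (1.39 to 7.19 FPKM in LPS+PA-BSA libraries and 1.80 to 11.2 FPKM in control libraries), and Retnlg and Ly6g were at 0 in all LPS+PA-BSA libraries and at most 0.595 FPKM and 0.163 FPKM in control libraries. B-cell markers summed to 1.85 to 2.40 FPKM in LPS+PA-BSA libraries and 46.1 to 51.1 FPKM in control libraries (mostly Ighm and Cd79b, with Ms4a1 and Pax5 at 0.0442 FPKM or less). T- and NK-cell markers summed to 1.08 to 1.39 FPKM in LPS+PA-BSA libraries and 6.46 to 7.53 FPKM in control libraries. Nearly all of this was Cd4 (0.916 to 1.31 FPKM in LPS+PA-BSA libraries and 6.17 to 7.15 FPKM in control libraries). The other T- and NK-cell markers stayed at 0.332 FPKM or less. Stromal markers summed to 32.7 to 40.5 FPKM in LPS+PA-BSA libraries and 69.1 to 130.3 FPKM in control libraries. Within the stromal list Dcn was higher (19.8 to 27.8 FPKM in LPS+PA-BSA libraries and 3.72 to 6.33 FPKM in control libraries), while Col1a1 was lower (3.97 to 6.07 FPKM in LPS+PA-BSA libraries and 31.6 to 69.5 FPKM in control libraries), as was Col1a2. Dendritic-cell markers stayed at 0.489 FPKM or less, erythroid markers at 5.46 FPKM or less and mast-cell and basophil markers at 2.34 FPKM or less. The part of other cells in the differences below was not tested, and in these bulk libraries fewer cells of a type and less RNA per cell cannot be told apart.

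Across the 10 genes, 4 were higher in LPS+PA-BSA libraries (Rel, Nfkb2, Nfkbia and Nfkbie), 1 was lower (Nfkbiz), and 5 did not pass the test (Rela, Nfkb1, Relb, Nfkbib and Bcl3). A gene passed when limma's moderated test on log2(FPKM + 1), fitted on all 11364 genes with at least 1 FPKM in 3 or more libraries, gave a two-sided Benjamini-Hochberg adjusted p under 0.05. Of all genes tested, 22.2% were higher and 32.9% were lower, so the shares among these 10 genes are to be read against a table in which 55.1% changed. Of the genes called, 40.3% were higher, a share that other scalings of the libraries put at 50.8% (quantile and trimmed mean) or 55.9% (median). The median log2 fold change of the 10 genes was 0.41, beside -0.11 for all genes tested. LPS+PA-BSA values lay above all control values for 5 genes, below them for 1 gene and overlapped for 4; over all genes tested, 26.3% lay above and 36.9% below without overlap (63.2% in all). Fold changes are LPS+PA-BSA over control on the log2(FPKM + 1) scale, which understates changes of low genes.

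**Figure D1:**
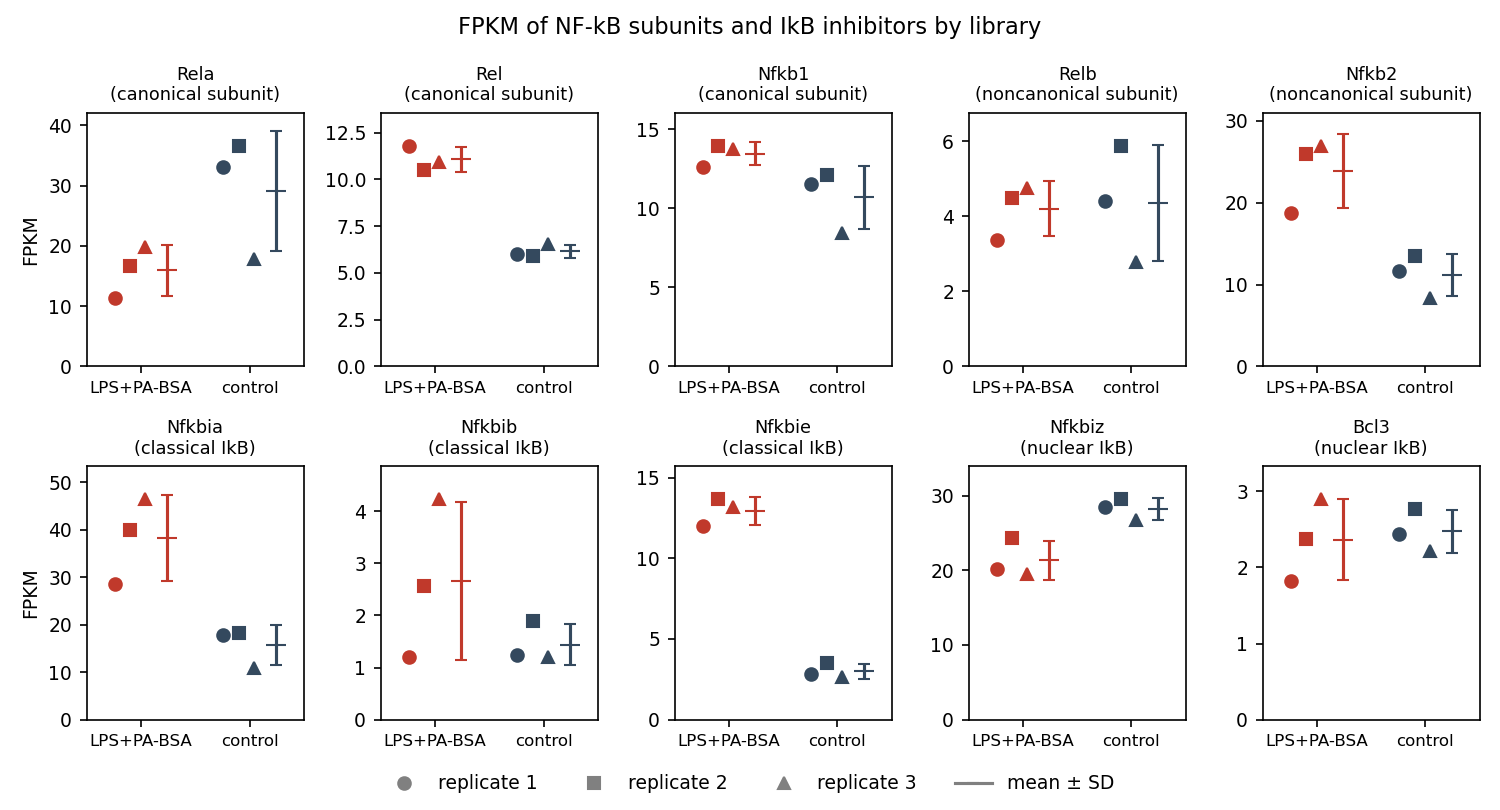
FPKM of the 10 genes, 1 panel per gene with its own axis from 0; points are single libraries, shaped by replicate number (3 LPS+PA-BSA on the left of each panel, 3 control on the right), and bars beside them are the mean ± SD. Nfkbie, Nfkbia, Nfkb2, Rel and Nfkb1 are higher in all 3 LPS+PA-BSA libraries than in any control library, and Nfkbiz is lower in all 3.

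The canonical subunits did not move alike. Rel, the c-Rel subunit found mainly in blood cells, was higher in LPS+PA-BSA macrophages, while the differences of Rela and Nfkb1 pointed in opposite directions and did not pass the test. Rel (ENSMUSG00000020275, GRCm38 chr11:23736847-23770970, minus strand, protein-coding) had 11.8, 10.5 and 11.0 FPKM in LPS+PA-BSA libraries 1, 2 and 3, against 5.98, 5.90 and 6.57 FPKM in control libraries 1, 2 and 3. The groups were far apart, and each varied by about the same relative amount (coefficients of variation of 5.91% in LPS+PA-BSA and 5.89% in control libraries). On the log2 scale the fold change was 0.76 (SE 0.0825, limma adjusted p = 0.000417), and it was 0.75 without LPS+PA-BSA 1 and control 3 (adjusted p = 0.00045).

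Rela encodes p65, the subunit with the strong transactivation domain. Its gene (ENSMUSG00000024927, chr19:5637483-5648130, plus strand, protein-coding) had 11.4, 16.6 and 19.8 FPKM in LPS+PA-BSA libraries and 33.1, 36.6 and 17.8 FPKM in control libraries. Control 3 lay within the LPS+PA-BSA range, and control 1 and 2 lay far above it. Means were 15.9 ± 4.22 FPKM in LPS+PA-BSA libraries and 29.2 ± 9.97 FPKM in control libraries (SD, n = 3 each). A log2 fold change of -0.80 (SE 0.304, 95% interval -1.53 to -0.07) did not pass the threshold (limma adjusted p = 0.0615). Without LPS+PA-BSA 1 and control 3 it was -0.91 and passed with less spread built in (limma adjusted p = 0.00143). It also passed when control 3 alone was left out (-1.11, limma adjusted p = 0.0048). Leaving out any other single library, it did not pass (limma adjusted p of 0.0614 to 0.172). The fold change passed in 4 of 19 other settings. After the trend with GC content and length was removed from each library it was -0.13 (limma adjusted p = 0.342). That removal also takes out any difference between the groups that follows GC content or length. With a GC content of 59.4%, the Rela transcript exceeded 96.9% of the tested genes.

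Nfkb1 encodes p105, the precursor of p50, the usual partner of p65. The gene (ENSMUSG00000028163, chr3:135584655-135691547, minus strand, protein-coding) had 12.6, 13.9 and 13.8 FPKM in LPS+PA-BSA libraries, against 11.6, 12.1 and 8.42 FPKM in control libraries. All 3 LPS+PA-BSA values exceeded all 3 control values, narrowly for LPS+PA-BSA 1 over control 2. Nfkb1 had a log2 fold change of 0.32 (SE 0.138, 95% interval -0.01 to 0.65, limma adjusted p = 0.0915). The value was 0.21 without LPS+PA-BSA 1 and control 3, where it passed with less spread built in (limma adjusted p = 0.0246). It also passed when libraries were rescaled by their medians (0.49, limma adjusted p = 0.0116). It did not pass without control 3 alone (0.17, limma adjusted p = 0.126) or with the trend with GC content and length removed (0.24, adjusted p = 0.238), and passed in 5 of 19 other settings.

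**Figure D2:**
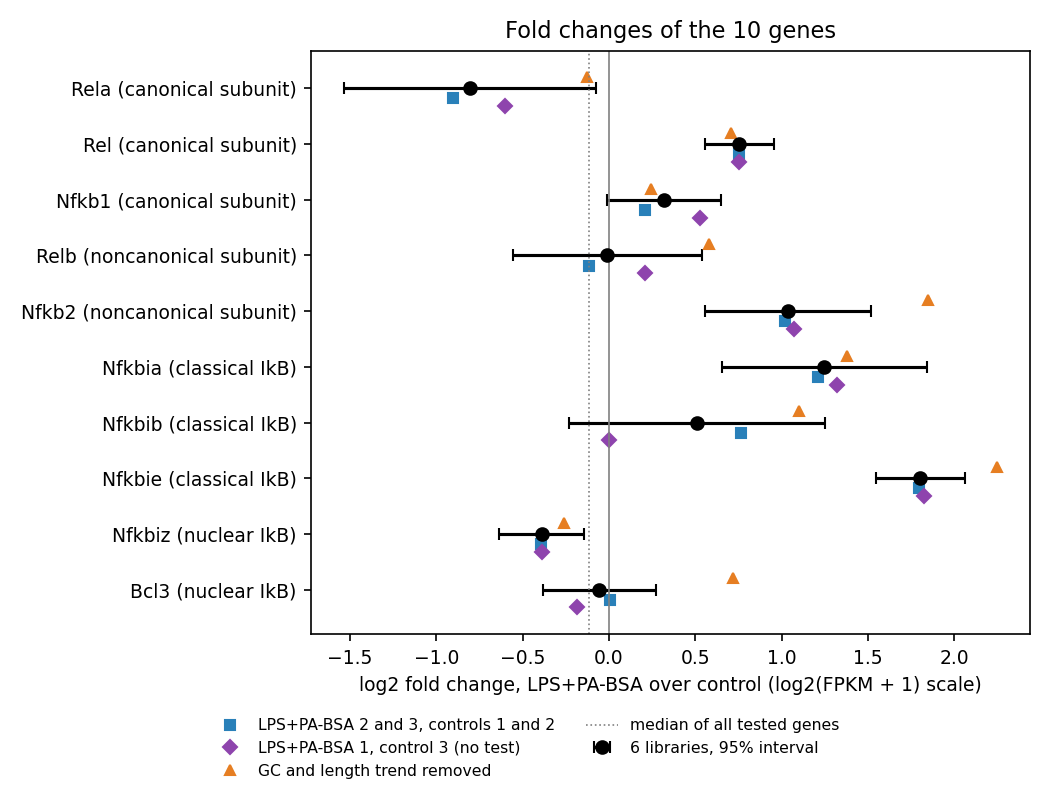
Log2 fold change (LPS+PA-BSA over control, log2(FPKM + 1) scale) of each gene with its 95% interval from limma on 6 libraries, beside the values without LPS+PA-BSA 1 and control 3 (squares), of LPS+PA-BSA 1 over control 3 alone (diamonds, no test) and after removal of the GC and length trend (triangles); the dotted line is the median of all tested genes. The points of Nfkbie, Nfkbia, Nfkb2, Rel, Nfkb1 and Nfkbib are above 0 in every version, that of Nfkbib by only 0.00098 for LPS+PA-BSA 1 over control 3. Rela moves from -0.80 to -0.13 when the GC and length trend is removed.

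Within the noncanonical pair, Nfkb2 was higher in LPS+PA-BSA libraries and Relb did not pass the test. Nfkb2, which encodes p100, both the precursor of p52 and an inhibitor of Relb (ENSMUSG00000025225, chr19:46304320-46312385, plus strand, protein-coding), had 18.7, 25.9 and 26.9 FPKM in LPS+PA-BSA libraries, against 11.7, 13.5 and 8.41 FPKM in control libraries. The lowest LPS+PA-BSA library exceeded the highest control library. The log2 fold change was 1.03 (SE 0.201, limma adjusted p = 0.00533), 1.02 without LPS+PA-BSA 1 and control 3 (adjusted p = 0.000495) and 1.85 with the GC and length trend removed (adjusted p = 5.80e-06). Psd and a bidirectional-promoter lncRNA overlap Nfkb2 on the other strand; both stayed low, at 0.786 FPKM or less and 2.12 FPKM or less.

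Relb, the partner of p52 (ENSMUSG00000002983, chr7:19606217-19629438, minus strand, protein-coding), had 3.37, 4.48 and 4.76 FPKM in LPS+PA-BSA libraries, against 4.42, 5.87 and 2.78 FPKM in control libraries. The control values spanned the whole LPS+PA-BSA range. Relb had a log2 fold change of -0.01 with a 95% interval of -0.56 to 0.54 (limma adjusted p = 0.975), so changes within that interval could not be told from 0. It was -0.12 without LPS+PA-BSA 1 and control 3 (limma adjusted p = 0.453) and 0.58 once the GC and length trend was removed (adjusted p = 0.00217).

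In every library Nfkb2 exceeded Relb. The ratio of their FPKM was 5.56, 5.78 and 5.65 in LPS+PA-BSA libraries and 2.64, 2.30 and 3.02 in control libraries. The ratio of Nfkb2 to Nfkb1, the other precursor gene, was 1.49, 1.86 and 1.96 in LPS+PA-BSA libraries and 1.01, 1.12 and 0.999 in control libraries. With the GC and length trend removed, the log2 difference of the Nfkb2 to Nfkb1 ratio between groups was 1.604, beside 0.72 without that step; GC content is 59.4% for Nfkb2 and 44.9% for Nfkb1. Neither ratio overlapped between groups, and the Nfkb2 to Relb ratio varied less between LPS+PA-BSA libraries than either gene did.

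The classical IkB genes were led by Nfkbie, with the largest fold change of the 10 genes, and Nfkbia, the most abundant of the 10 transcripts in LPS+PA-BSA libraries. Nfkbie encodes IkB-epsilon, a feedback inhibitor that binds Rel and Rela dimers (ENSMUSG00000023947, chr17:45555703-45563169, plus strand, protein-coding). It had 12.0, 13.7 and 13.1 FPKM in LPS+PA-BSA libraries, against 2.82, 3.52 and 2.67 FPKM in control libraries. The ratio of the group means was 4.304, and neither group had a library near the other. Nfkbie had a log2 fold change of 1.80 (SE 0.107, limma adjusted p = 3.15e-05), and 1.79 without LPS+PA-BSA 1 and control 3 (adjusted p = 0.000182).

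Nfkbia encodes IkB-alpha, the inhibitor that is degraded and remade fastest after stimulation (ENSMUSG00000021025, chr12:55489410-55492647, minus strand, protein-coding). Its level was 28.5, 40.0 and 46.4 FPKM in LPS+PA-BSA libraries, against 17.9, 18.3 and 10.8 FPKM in control libraries. The groups did not overlap, although each group varied widely (coefficients of variation of 23.6% in LPS+PA-BSA and 26.9% in control libraries). The log2 fold change was 1.25 (SE 0.248, limma adjusted p = 0.0059), and 1.21 without LPS+PA-BSA 1 and control 3 (adjusted p = 0.000332).

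Nfkbib, which encodes IkB-beta, was the lowest of the 3 classical inhibitors in both groups (ENSMUSG00000030595, chr7:28758251-28767512, minus strand, protein-coding). Its level was 1.196, 2.56 and 4.23 FPKM in LPS+PA-BSA libraries, against 1.23, 1.89 and 1.19 FPKM in control libraries. LPS+PA-BSA 1 lay within the control range, and the other two lay above it. Nfkbib had a log2 fold change of 0.51 with a 95% interval of -0.23 to 1.25 (limma adjusted p = 0.199). It was 0.83 and passed when LPS+PA-BSA 1 was left out (limma adjusted p = 0.0258), 0.76 when control 3 was left out as well (adjusted p = 0.0351) and 1.099 after the GC and length trend was removed (adjusted p = 0.00798). In the other direction it was 0.21 without LPS+PA-BSA 3 (limma adjusted p = 0.503), and LPS+PA-BSA 1 and control 3 alone differed by 0.00098. The 5′ end of Nfkbib overlaps that of Sirt2, a deacetylase gene on the other strand that had 7.38, 10.1 and 12.9 FPKM in LPS+PA-BSA libraries and 39.7, 38.8 and 15.9 FPKM in control libraries. The library kit marked strand, but no source used here says whether counting kept it, so reads of the shared stretch are uncertain.

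Of the nuclear IkB proteins, which bind NF-kB on chromatin instead of holding it in the cytoplasm, Nfkbiz was lower in LPS+PA-BSA libraries and Bcl3 did not pass the test. Nfkbiz encodes IkB-zeta, which helps induce secondary response genes such as Il6 (ENSMUSG00000035356, chr16:55811375-55838899, minus strand, protein-coding). It had 20.1, 24.3 and 19.6 FPKM in LPS+PA-BSA libraries, against 28.4, 29.5 and 26.7 FPKM in control libraries. The groups did not overlap. The log2 fold change was -0.39 (SE 0.102, limma adjusted p = 0.0175) and remained -0.39 without LPS+PA-BSA 1 and control 3 (adjusted p = 0.0296). The call was lost when libraries were rescaled by their medians (-0.22, limma adjusted p = 0.118) or by a trimmed mean (-0.26, adjusted p = 0.0605). It was also lost when LPS+PA-BSA 1, LPS+PA-BSA 3, control 1 or control 2 was left out in turn (limma adjusted p of 0.053, 0.0597, 0.0587 and 0.0625).

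Bcl3 encodes a coactivator that binds p50 and p52 dimers (ENSMUSG00000053175, chr7:19808462-19822770, minus strand, protein-coding) and lies 179 kb from Relb. It had 1.83, 2.37 and 2.90 FPKM in LPS+PA-BSA libraries, against 2.44, 2.77 and 2.21 FPKM in control libraries. The groups overlapped over most of their ranges. Bcl3 had a log2 fold change of -0.06 with a 95% interval of -0.38 to 0.27 (limma adjusted p = 0.744), and 0.72 after the GC and length trend was removed (adjusted p = 0.0158). Antisense genes listed within Bcl3 reached at most 1.55 FPKM.

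The order of the 10 transcripts differed between the groups. In LPS+PA-BSA libraries Nfkbia had the highest mean FPKM, and its range lay clear of that of the next gene, Nfkb2. Below it, Nfkb2, Nfkbiz, Rela, Nfkb1 and Nfkbie followed, each overlapping its neighbour, then Rel, clear of Nfkbie above and Relb below, and last Relb, Nfkbib and Bcl3. In control libraries Rela and Nfkbiz led with overlapping ranges, followed by Nfkbia, Nfkb2 and Nfkb1, each overlapping its neighbour. Rel came next, clear of both neighbours, and then Relb, Nfkbie and Bcl3, with Nfkbib lowest and clear of Bcl3.

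Measured within each library, Rela made up 19.7%, 23.2% and 26.0% of the summed FPKM of the 5 subunit genes in LPS+PA-BSA libraries and 49.6%, 49.5% and 40.5% in control libraries. Nfkb2 made up 32.4%, 36.3% and 35.3% in LPS+PA-BSA libraries and 17.5%, 18.2% and 19.1% in control libraries. Neither share overlapped between groups, so Nfkb2 was the leading subunit transcript in each LPS+PA-BSA library and Rela in each control library. Relb made up 5.82%, 6.28% and 6.25% in LPS+PA-BSA libraries and 6.62%, 7.95% and 6.33% in control libraries, narrowly without overlap. The Rel and Nfkb1 shares overlapped. The sum itself also overlapped, at 57.9, 71.4 and 76.2 FPKM in LPS+PA-BSA libraries and 66.7, 73.9 and 44.0 FPKM in control libraries.

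The summed FPKM of the 3 classical IkB genes was 41.7, 56.2 and 63.8 in LPS+PA-BSA libraries and 21.9, 23.7 and 14.7 in control libraries. Relative to the summed subunits it was 0.721, 0.787 and 0.837 in LPS+PA-BSA libraries and 0.329, 0.320 and 0.333 in control libraries, with the control libraries closely alike in this ratio although their sums differed. Nfkbia over Rela was 2.50, 2.41 and 2.35 in LPS+PA-BSA libraries and 0.540, 0.4997 and 0.606 in control libraries. This ratio was much steadier within each group than Nfkbia or Rela alone. Nfkbie over Rela was 1.05, 0.823 and 0.665 in LPS+PA-BSA libraries and 0.0851, 0.0964 and 0.1499 in control libraries. These shares and ratios are descriptions, given without a test because they are built from the same values as the fold changes above.

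**Figure D3:**
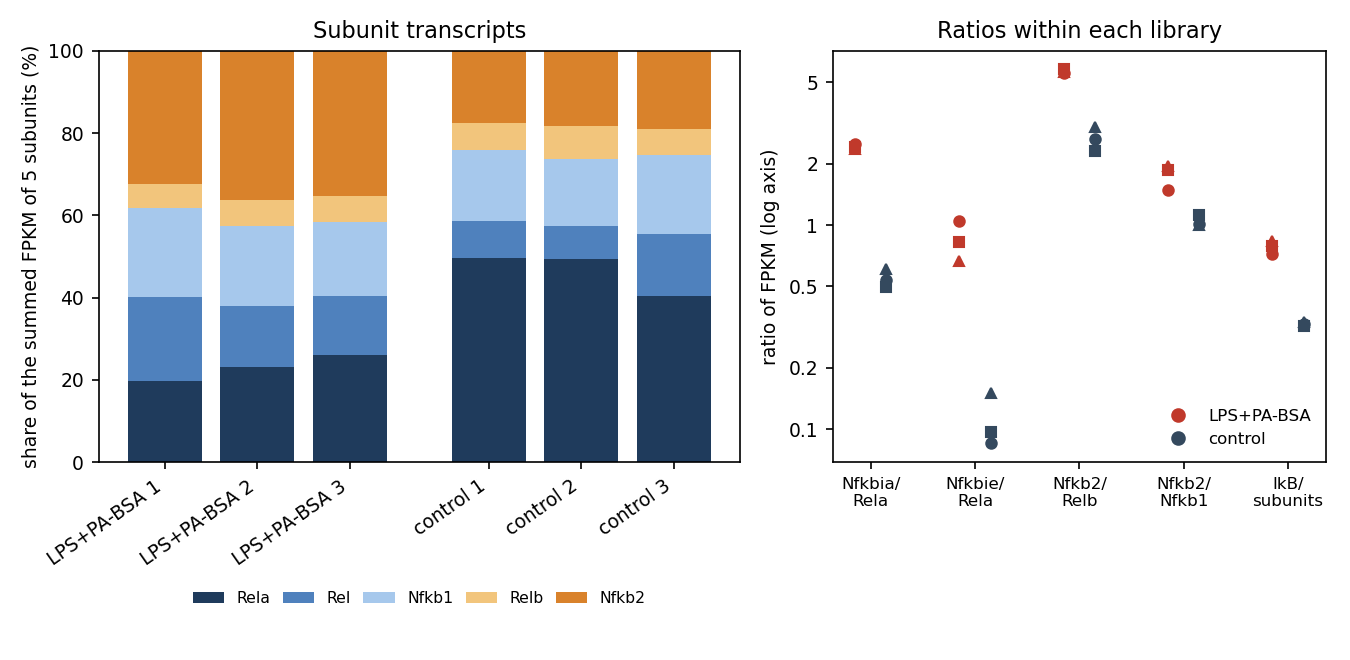
Left, the share (%) of each of 5 subunit genes in their summed FPKM, 1 bar per library, LPS+PA-BSA libraries left of control libraries. Right, ratios of FPKM within each library on a log axis, with LPS+PA-BSA points left of control points and shapes for the replicate number; the Rela share is 19.7 to 26.0% in LPS+PA-BSA and 40.5 to 49.6% in control libraries, and none of the 5 ratios overlaps between the groups.

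The spread within groups followed the 2 libraries that stood apart. LPS+PA-BSA 1 was the lowest library of its group for 8 of the 10 genes, against 35.9% of all tested genes, and control 3 was the lowest of its group for 9 of the 10, against 40.2%. Transcript GC content was above the median of tested genes (49.1%) for 8 of the 10 genes, the exceptions being Rel (42.5%) and Nfkb1 (44.9%). Over 11357 tested genes, Spearman's rho between GC content and the difference of LPS+PA-BSA 1 from LPS+PA-BSA 2 and 3 was -0.61, and that of control 3 from control 1 and 2 gave -0.67. These correlations run across genes, which share libraries and are not replicates, and carry no test. Rel was higher in both of these libraries than in the others of its group (by 0.13 and 0.12 on the log2 scale), whereas Rela was lower by far (-0.62 and -0.93). Rela, Nfkb1 (-0.13 and -0.44) and Nfkbia (-0.58 and -0.69) lay below the middle 50% of genes in the same 5-point bin of GC content in both libraries. Nfkbib lay below it in LPS+PA-BSA 1 (-0.97) and above it in control 3 (-0.21), as did Nfkbie and Bcl3 in control 3, and all other values lay within it. With the GC and length trend removed, 7 of the 10 genes were higher and 1 was lower, against 29.0% and 31.5% of all genes tested (60.5% in all). The trend was removed from every library, so this step is not limited to the 2 libraries that stood apart. Among LPS+PA-BSA 2 and 3 and control 1 and 2 alone, 6 were higher and 2 were lower, against 26.0% and 40.1% (66.1% in all).

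**Figure D4:**
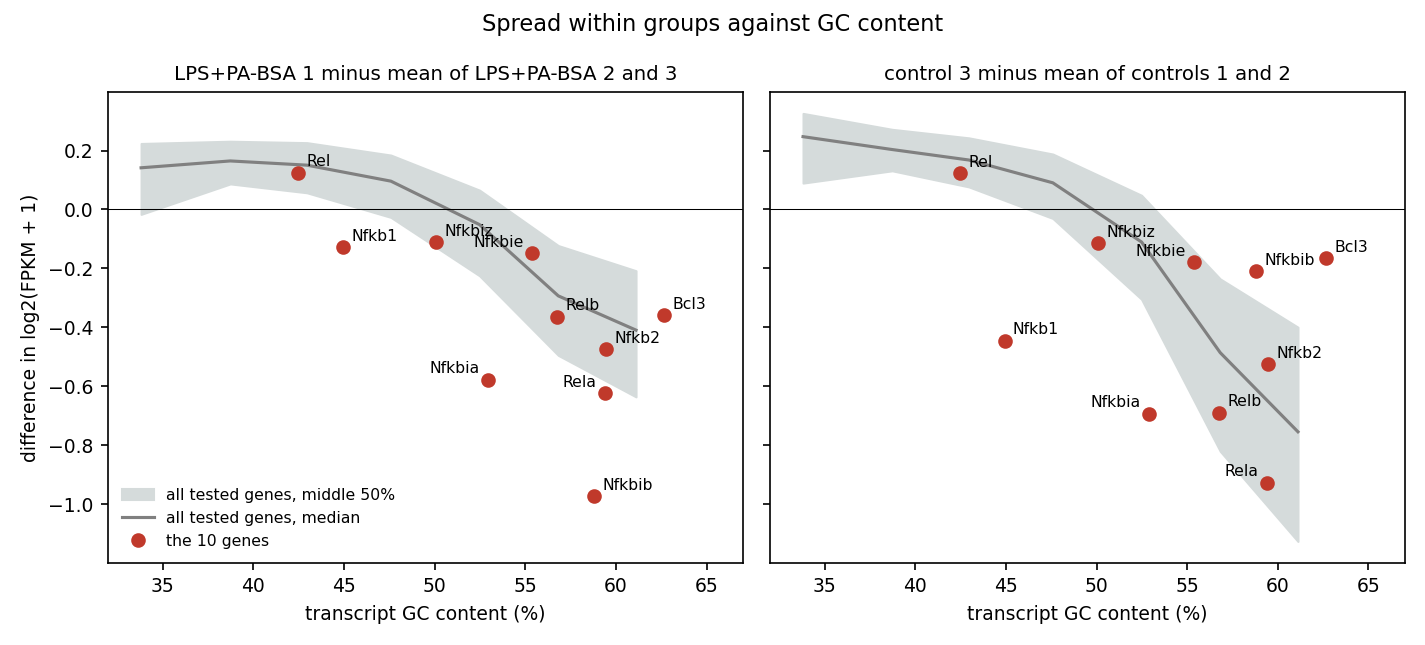
Difference in log2(FPKM + 1) of LPS+PA-BSA 1 from the mean of LPS+PA-BSA 2 and 3 (left) and of control 3 from the mean of control 1 and 2 (right), against transcript GC content (%). The grey line and band are the median and the middle 50% of all tested genes in GC bins of at least 20 genes, and red points are the 10 genes; Rel lies near 0.12 in both panels and Rela at -0.62 and -0.93.

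In the authors' deposited table, Nfkb2, Nfkbia and Nfkbie were marked significant, against 14.6% of its 29957 rows. The q-value in the authors' deposited table was under 0.05 for 7 of the 10 genes, those 3 together with Rel, Rela, Nfkb1 and Nfkbib, against 25.0% of all its rows. Both shares run over all rows, of which only 11364 met the FPKM filter that all 10 genes met. They are therefore not a like background, and the shares among tested genes were not worked out. For Nfkbiz, which passed limma's test, the authors' deposited table gives a q-value of 0.296. For Rela, which did not, the authors' deposited table gives a q-value of 0.035 and a fold of 0.546.

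Other genes of the pathway were described through 7 lists with 66 genes in all, each of them tested. Of these, 36 were higher in LPS+PA-BSA libraries, 10 were lower and 20 did not pass, against 22.2% higher and 32.9% lower over all genes tested. Among the 36, Il6, Il12b, Csf2 and Csf3 entered the test through LPS+PA-BSA values alone. Among the 10, Pdlim2 entered through control values alone. A difference was built in for these genes, and such genes were not taken out of the shares over all genes tested. Among receptors and ligands that signal to NF-kB, 4 of 10 were higher, 3 were lower and the median log2 fold change was 0.35. Tnf, the cytokine that activates canonical NF-kB through its own receptors, had 194, 275 and 265 FPKM in LPS+PA-BSA libraries and 23.1, 22.1 and 18.2 FPKM in control libraries (log2 fold change 3.46, limma adjusted p = 1.19e-05). Il1b, whose protein is matured by the inflammasome, averaged 201 ± 20.5 FPKM in LPS+PA-BSA libraries and 1.77 ± 1.302 FPKM in control libraries (SD, n = 3 each). Cd40, a receptor that feeds both pathways, averaged 15.1 ± 3.37 FPKM in LPS+PA-BSA libraries and 1.78 ± 0.5998 FPKM in control libraries (SD, n = 3 each). All 3 were higher (log2 fold changes of 6.28 for Il1b and 2.54 for Cd40). The lower genes were Il1r1, the receptor for IL-1 (log2 fold change -0.70), Tnfrsf11a, the receptor RANK (-0.33), and Tnfrsf1a, a receptor for TNF (-0.25). The Tnfrsf1a value turned to 0.15 once the GC and length trend was removed (limma adjusted p = 0.289).

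Among kinases, 4 of 11 were higher and 2 were lower (median 0.19). Ikbkg, which encodes NEMO, the regulatory subunit of the IkB kinase complex, had 22.0, 21.3 and 20.5 FPKM in LPS+PA-BSA libraries and 13.0, 12.9 and 13.0 FPKM in control libraries (log2 fold change 0.67, limma adjusted p = 0.0003). The catalytic subunit genes Chuk and Ikbkb did not pass (0.24 and -0.09). Tbk1, an IkB kinase relative (0.61), and Map3k8, the kinase TPL2 that is bound by p105 (0.47, and 0.24 with the GC and length trend removed), were higher. Map3k14, which encodes NIK, the kinase that starts noncanonical signalling, had 0.908, 1.76 and 1.59 FPKM in LPS+PA-BSA libraries and 5.07, 6.14 and 2.52 FPKM in control libraries. It was lower without overlap (log2 fold change -1.16, limma adjusted p = 0.0134), by -0.37 with the GC and length trend removed (adjusted p = 0.0245). Tab1, an adaptor of the kinase TAK1, was also lower (-0.93), but not with that trend removed (-0.29, limma adjusted p = 0.0733).

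TRAF and cIAP proteins are the adaptors and ubiquitin ligases that hold NIK low in resting cells and link receptors to kinases. Their list, which also holds Tank and Otud7b, had 7 of 9 genes higher and none lower (median 0.54). Tank (log2 fold change 1.38) and Otud7b (0.35) are among the 7. Traf1, itself a known NF-kB target, had 15.5, 20.97 and 19.9 FPKM in LPS+PA-BSA libraries and 2.03, 1.80 and 1.67 FPKM in control libraries (log2 fold change 2.80, limma adjusted p = 1.17e-05). Birc3, which encodes cIAP2, averaged 51.3 ± 4.82 FPKM in LPS+PA-BSA libraries and 12.2 ± 1.06 FPKM in control libraries (SD, n = 3 each). Traf6, the ligase downstream of Toll-like receptors, averaged 12.6 ± 1.37 FPKM in LPS+PA-BSA libraries and 4.14 ± 0.323 FPKM in control libraries (SD, n = 3 each). Both were higher, by 1.99 and 1.40 on the log2 scale. Of the ubiquitin ligase that recognises phosphorylated IkB, 3 of 5 subunit genes were higher and none lower (median 0.29), namely Cul1 (0.61), Rbx1 (0.39) and Fbxw11 (0.29); for Rbx1 the value was 0.09 and did not pass with the GC and length trend removed (limma adjusted p = 0.426). Nuclear cofactors and factors that end NF-kB activity had 2 of 11 higher and 3 lower (median -0.17). The higher ones were Ccnt1 (0.43) and Sirt1 (0.33), and the lower ones were Pdlim2 (-0.97, which entered the test through control values alone and was at -0.50 with the GC and length trend removed), Cdk9 (-0.64) and Ep300 (-0.33), the last of which was at 0.01 with that trend removed (limma adjusted p = 0.9).

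Known NF-kB target genes were mostly higher, at 11 of 15, with 2 lower and a median of 1.88. Ptgs2, which encodes the prostaglandin synthase COX-2, had 280.0, 258 and 269 FPKM in LPS+PA-BSA libraries and 2.68, 2.59 and 3.92 FPKM in control libraries (log2 fold change 6.07, limma adjusted p = 1.02e-06). The chemokine genes Ccl5 and Ccl2 were higher by 3.90 and 3.33. Leaving out control 3, which had 5.13 FPKM of Ccl5 against 36.9 FPKM in each of the other control libraries, gave 3.03 for Ccl5. The lower targets were Bcl2l1, the survival gene for BCL-XL (-0.82), and Vcam1, an adhesion molecule (-0.61). For Bcl2l1 control 3 (10.04 FPKM) lay within the LPS+PA-BSA range (7.79 to 10.1 FPKM), and with the GC and length trend removed the value was -0.40 and did not pass (limma adjusted p = 0.0748). Calls of Bcl2l1, Tnfrsf1a, Tab1, Pdlim2 and Sirt1 were lost on leaving out any 1 library other than control 3, and that of Tnfrsf11a on leaving out any other than LPS+PA-BSA 2. Ccnt1 lost its call without control 1 or 2, Ep300 without LPS+PA-BSA 2, Rbx1 without LPS+PA-BSA 2, control 1 or control 2, and Fbxw11 without LPS+PA-BSA 1 or 2 or control 1 or 2. All 5 genes known to need IkB-zeta for their induction in mouse macrophages (Il6, Il12b, Lcn2, Csf2 and Csf3) were higher in LPS+PA-BSA libraries, beside the lower Nfkbiz transcript. All but Lcn2 entered the test through their LPS+PA-BSA values alone, so a difference in this count was built in for them. Il6 had 46.4, 49.1 and 42.5 FPKM in LPS+PA-BSA libraries and 0.427, 0.358 and 0.825 FPKM in control libraries, and Lcn2, an iron-binding antibacterial protein, had 44.2, 59.5 and 55.9 FPKM in LPS+PA-BSA libraries and 2.52, 2.69 and 1.17 FPKM in control libraries.

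**Figure D5:**
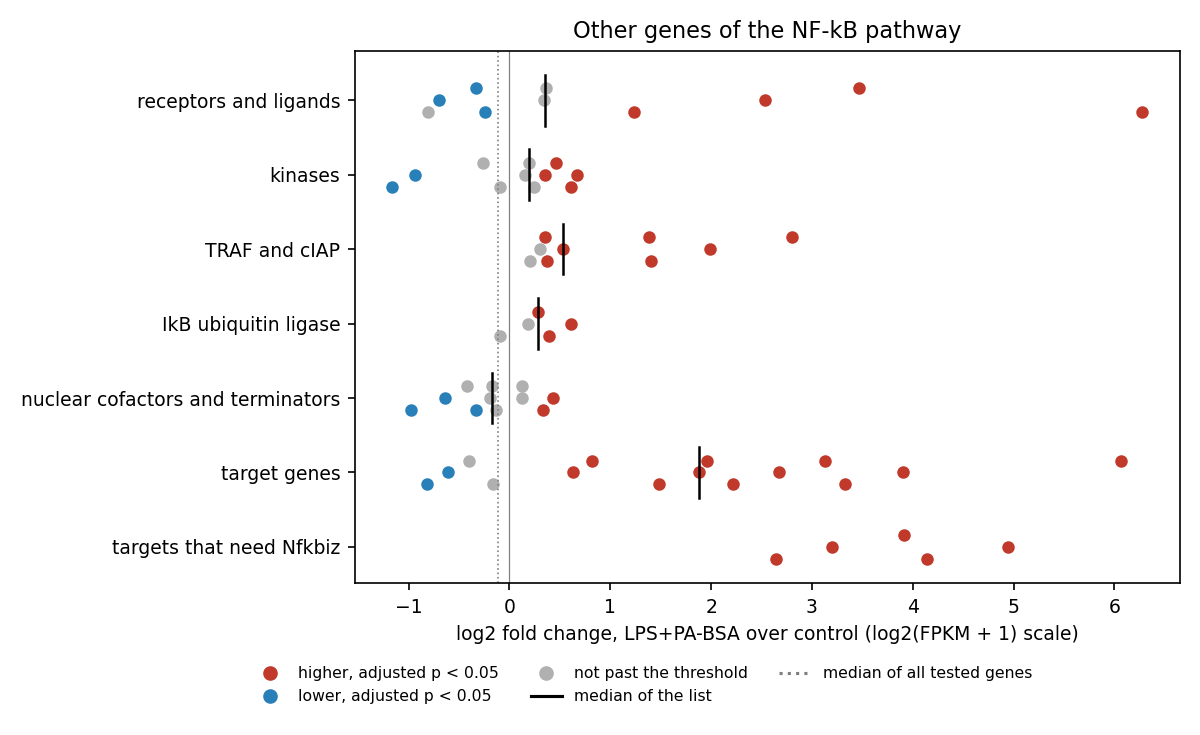
Log2 fold change (LPS+PA-BSA over control, log2(FPKM + 1) scale) of 66 genes in 7 lists, 1 point per gene coloured by limma's call, with black bars at list medians and a dotted line at the median of all tested genes (-0.11). Target genes reach from -0.82 to 6.07 with a median of 1.88, and the TRAF and cIAP row holds no lower gene; no median is drawn for the genes that need Nfkbiz, most of which entered the test through LPS+PA-BSA values.

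The gene most like each of the 10 was sought among 6181 genes by the root mean square difference of centred log2(FPKM + 1) values over the 6 libraries. Rel had the closest match, Blcap (0.017), with 28.5, 25.1 and 26.8 FPKM in LPS+PA-BSA libraries and 15.0, 14.5 and 16.6 FPKM in control libraries. Nfkb1 was nearest to Traf3 (0.0391), the adaptor that targets NIK for destruction, with 9.53, 9.74 and 9.66 FPKM in LPS+PA-BSA libraries and 8.12, 8.91 and 6.04 FPKM in control libraries. Nfkb2 and Nfkbia shared Daxx as the nearest gene (0.0748 and 0.101), at 18.9, 26.4 and 26.7 FPKM in LPS+PA-BSA libraries and 12.1, 12.0 and 7.72 FPKM in control libraries. Rela was nearest to Trim41 (0.0496), Nfkbiz to Arhgap30 (0.0583), Bcl3 to Tfg (0.0623), Relb to Ptpn23 (0.0737) and Nfkbie to Usb1 (0.083). Nfkbib had the loosest match, Srgn (0.209). These likenesses include the 2 libraries that stood apart and are descriptions only.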

How the data were processed

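RNA of 6 BMDM libraries was selected on oligo(dT) and made into libraries with a kit that marks strand, per the labels' protocols. Genome build mm10 and the tools edgeR, DESeq2, StringTie 2.1.6, HISAT2 2.2.1 and cutadapt 1.9 come from the submitters' processing notes, which tie none of them to a column as given here. Per the file headers, the deposited table holds FPKM per library, and the authors' fold (a ratio), its log2 value, a p-value and a q-value; it holds no counts. None of these sources states whether counting used strand.

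limma 3.58.1 (R 4.3.3) with a mean-variance trend was fitted to log2(FPKM + 1), LPS+PA-BSA against control, without covariates. It took the 11364 genes with at least 1 FPKM in 3 or more libraries, and p-values were adjusted over all of them. The fit was also run on simulated data with independent noise in each library. Those data lack the axis of spread shared by these libraries, so that run cannot show how the axis affects the test. FPKM and not counts being deposited, no count test was run. Depth was read from the size of FPKM steps, with a tolerance of 0.5%, and is approximate. Levels rest on sampled fragments, so low genes are less precise. Of 29957 gene IDs, 29871 were in GENCODE M21 (GRCm38), which gave positions and transcript GC content, the latter from the longest transcript of each gene. No 2 libraries held identical values. The library sets come from the sign of the first principal component of group-centred values, since the labels name no batch. Fits within a set, or with a term for the sets, therefore have less within-group spread by construction.

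The members and lists were chosen with earlier results of these data known. Named list genes are those past the threshold with the largest change in each list, at most 3 in each direction; any list gene past the threshold against the majority of its list is named too. Chuk, Ikbkb, Tank, Otud7b, Il12b and Csf3 were named outside this rule, after their values were seen. The genes most like a member were sought among tested genes with a mean of at least 5 FPKM. Alternatives were other pseudocounts, filters and scalings, a GC and length correction, a term for library sets, a replicate block and leaving out each library.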

Additional observations from a re-analysis of the deposited data

How the results depend on the processing

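Beside the results as reported, 20 other settings were run, 19 of them with a test; 3 were chosen after seeing the data (the set of LPS+PA-BSA 2 and 3 with control 1 and 2 alone, LPS+PA-BSA 1 against control 3 alone with no test, and a replicate block with the GC and length trend removed). Rel, Nfkb2, Nfkbia and Nfkbie passed the threshold as higher in all 19, and Nfkbiz passed as lower in 13. Of the 10 genes, 4 to 5 were higher and 0 to 2 lower when each library was left out in turn. With the GC and length trend removed 7 were higher, with or without the block. The count of lower genes was 2 under quantile normalization, under a term for library sets and within the 4-library set, and 0 under median and trimmed mean scaling. Relb turned to 0.20 under quantile normalization, 0.16 under median scaling, 0.10 under trimmed mean scaling, 0.21 between LPS+PA-BSA 1 and control 3, and 0.58 with the GC and length trend removed, with or without the block (leaving out each library, -0.24 to 0.19). Bcl3 turned to 0.17, 0.12 and 0.037 under those scalings, 0.01 (0.0082) within the 4-library set and 0.72 with the trend removed, with or without the block (leaving out each library, -0.17 to 0.064). With the trend removed Tnfrsf1a turned to 0.15 and Ep300 to 0.01 (0.0084), with or without the block. The cause of these turns was not tested. Over all genes tested 2523 were higher and 3736 lower, against 3014 and 2922 under quantile normalization, 3367 and 2656 under median scaling and 3120 and 3016 under trimmed mean scaling; these moved the median log2 fold change by 0.13, 0.17 and 0.10. A filter at 5 FPKM left 2009 lower, having fewer genes to test, and leaving out each library gave 2007 to 2778 higher and 2765 to 4273 lower. In the pathway lists 10 were lower as reported, 5 with no filter, with a filter at 5 FPKM and with the replicate block (alone or with the trend removed), 6 under the 3 scalings, and 5 to 14 when each library was left out; the higher count ranged from 29 to 36 there. The log2 difference of Nfkbia over Rela was 2.05, and 1.502 with the GC and length trend removed, with or without the block. Nfkb2 over Relb gave 1.04, against 0.85 under quantile normalization, 0.86 between LPS+PA-BSA 1 and control 3, and 1.27 with the trend removed. Nfkb2 over Nfkb1 gave 0.72, and 1.604 with the trend removed. Libraries of the same number did not deviate together (correlations of -0.47, 0.09 and -0.59). These deviations mostly follow the axis that sets LPS+PA-BSA 1 and control 3 apart (68.2% of the variance). They therefore cannot show whether the numbers pair libraries by mouse, culture or preparation. With the replicate block 4 of the 10 genes were higher and 1 lower, and over all genes 1918 were higher and 2820 lower. With 3 libraries a group and 13.9 to 21.1 M fragments each, small changes of Nfkbib and Bcl3, near 1 to 4 FPKM, cannot be resolved.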
